A study of Mus musculus with 18 samples.

Results

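The AP-1 and immediate early genes described here are Fos, Fosb, Fosl2, Jun, Junb, Jund, Egr1, Ier2, Atf3 and Klf6, taken by gene symbol. All 10 were found once in each deposited table, among 55183 genes listed for cultured tumour cells and 19464 genes listed for whole brain. Of the 10, 7 reached the filter used for testing in both tables (at least 1 FPKM, fragments per kilobase of gene scaled by library depth, in at least 3 libraries). Fosb, Jund and Atf3 stayed under it in both and are given by their values.

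AP-1 is a dimer of basic leucine zipper proteins. JUN proteins pair with one another or with FOS proteins, whereas FOS proteins need a JUN partner to bind DNA. Immediate early genes are transcribed within minutes of a growth factor, depolarising or stress signal without new protein synthesis, through factors such as SRF with its ELK partners and CREB that are already present and are activated by kinases. In brain they are widely used as markers of recent neuronal activity.

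The study asks how inhibition of OLIG2, a transcription factor of the oligodendrocyte lineage, affects medulloblastoma stem cells, and RNA sequencing of 18 mouse libraries was used here, in 6 groups of 3. PTCP53 304 is a cell line labelled SHH MB, for medulloblastoma driven by Sonic hedgehog, and carries Ptch1+/-; Trp53-/-. Its cells received CT-179 for 144 h, vehicle for 144 h, CT-179 for 24 h or vehicle for 24 h. CT-179 is labelled as the OLIG2 inhibition. Whole brains came from mice with the genotype label Ptch1+/-; IR at postnatal day 15, after 12 days of CT-179 or of vehicle started on postnatal day 3. All cell groups share both mutated genes of a single line, and all brains share the Ptch1 allele. The letters IR are not explained in the labels. Whether the 3 replicates of a group were grown or dosed separately is not in the labels, and the spread behind each p-value may therefore be technical.

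The sequences just upstream of Fos, Jun and Junb are shown because these members behaved differently: Fos rose most with time in culture, Junb rose with time and with CT-179, and Jun stayed near 1 level. Each line gives the 250 bases before the RefSeq start on GRCm38.p6, 5′ to 3′ on the strand of the gene. They lie at chr12:85473640-85473889 on the plus strand for Fos, chr4:95052223-95052472 on the minus strand for Jun and chr8:84978749-84978998 on the minus strand for Junb. Capitals mark every match to TGACG (the core of the site that CREB and ATF proteins bind), TGACNTCA (an 8-base site of the CRE type that JUN and ATF dimers bind), TGANTCA (the AP-1 site), the CArG box bound by SRF, or TATAAA.
Fos: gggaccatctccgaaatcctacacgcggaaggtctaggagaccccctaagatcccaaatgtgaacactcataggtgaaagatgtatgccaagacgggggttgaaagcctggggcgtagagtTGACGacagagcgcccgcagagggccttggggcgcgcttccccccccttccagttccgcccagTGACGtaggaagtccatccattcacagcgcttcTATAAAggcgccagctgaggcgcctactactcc
Jun: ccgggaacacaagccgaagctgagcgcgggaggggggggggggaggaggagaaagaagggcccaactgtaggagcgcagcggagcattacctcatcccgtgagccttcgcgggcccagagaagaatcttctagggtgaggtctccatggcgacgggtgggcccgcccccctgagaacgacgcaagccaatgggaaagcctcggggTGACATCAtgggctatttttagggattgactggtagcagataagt
Junb: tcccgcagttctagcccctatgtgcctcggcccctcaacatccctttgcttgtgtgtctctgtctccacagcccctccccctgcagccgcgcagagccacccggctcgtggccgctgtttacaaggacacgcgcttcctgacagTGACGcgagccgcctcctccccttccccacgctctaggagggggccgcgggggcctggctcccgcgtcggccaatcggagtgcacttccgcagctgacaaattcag

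Both strands were searched in the windows of 8 of the 10 members. Egr1 and Ier2 were not searched. The windows follow the RefSeq start, which is not always the start of the deposited gene. The Fosl2 window (chr5:32136222-32136471) lay inside the deposited gene, which spans 32135801 to 32157842. The Atf3 window (chr1:191183334-191183583) also lay inside its gene, which spans 191170296 to 191218039. The Jund window ended at 70697738, short of the deposited start at 70698949. The Fos window held TGACG from 129 to 125 and from 66 to 62 bases upstream of the start, and TATAAA from 33 to 28 bases upstream. The Junb window held TGACG from 106 to 102 bases upstream, and the Jun window TGACATCA from 45 to 38 bases upstream. In windows not printed, Klf6 held TGACATCA from 119 to 112 bases upstream, Fosb held TGACG from 60 to 56, and Atf3 held it on the other strand from 7 to 3. Fosl2 and Jund had no match, and no CArG box or TGANTCA was in any of the 8 windows. Bases further upstream than 250, or downstream of the start, were not searched, so sites there would be missed. Among 32851 RefSeq windows of the same length, 17.8% held TGACG, 7.49% TGACNTCA, 6.75% TGANTCA, 1.47% a CArG box and 12.4% TATAAA, counted separately although TGACG overlaps part of the 8-base sites. A match is a run of letters and not a measured binding site.

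Depth was estimated from the smallest steps of the FPKM values and came to 2.96e+07 to 7.11e+07 reads per cell library and 1.77e+07 to 6.35e+07 reads per brain library. Replicate 2 of CT-179 at 144 h stood apart: its correlation with the other 2 libraries of its group was 0.941 and 0.943, against 0.996 or more within each other cell group. The shallowest brain library, vehicle replicate 2, gave 12.5% of implied reads to Lars2 with Gm15564, a share of 0.0638% to 0.0732% elsewhere in brain. Of 8 granule lineage markers, 4 averaged at least 1 FPKM in each cell group and the list summed to 31.0 to 49.3 FPKM per library, while Gabra6, Neurod1 and Atoh1 were under 0.1 FPKM in all 4 cell groups of this line labelled SHH MB. In the brains none of the 8 was under 0.1 FPKM. The brain libraries were assigned by their treatment label; since the word vehicle stands in the titles of both groups, every direction in brain depends on that label.

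The largest differences among the members lay between the 2 times in culture. Between 24 h and 144 h, 6 of the 7 tested members rose in CT-179 cells and 5 of the 7 rose in vehicle cells, and none fell (limma, adjusted p under 0.05 over 12510 genes). Over all genes tested, 33.2% were called higher in CT-179 cells and 34.1% in vehicle cells. In bulk RNA, a change in the share of cells of a type and a change of RNA per cell cannot be told apart. The median log2 fold change of the 7 members was 0.78 in CT-179 cells and 0.72 in vehicle cells, beside -0.02 and 0.01 over all genes tested. Without replicate 2 of CT-179 at 144 h, 6 members were called higher in each arm, beside 43.9% of all genes in CT-179 cells and 44.2% in vehicle cells. The 2 time comparisons use separate libraries but share 1 estimate of the spread.

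Fos, whose protein is the best known partner of JUN, rose most. In CT-179 cells it stood at 28.0, 25.6 and 29.6 FPKM at 144 h, against 1.82, 1.65 and 2.06 FPKM at 24 h. In vehicle cells it stood at 23.7, 25.4 and 21.3 FPKM at 144 h, against 1.72, 1.98 and 1.99 FPKM at 24 h. No library at 24 h was above 2.06 FPKM and none at 144 h was below 21.3 FPKM, so the times did not overlap in either arm. The ratio of group means was 15.0 in CT-179 cells and 12.4 in vehicle cells. On the log2(FPKM + 1) scale, which understates changes of low genes, Fos rose by 3.34 (SE 0.0869, adjusted p = 2.0e-10, limma) in CT-179 cells. The rise in vehicle cells was 3.08 (SE 0.0869, adjusted p = 3.4e-10, limma). These changes were larger than those of 99.4% of all protein-coding genes tested with a known length in CT-179 cells and 99.2% in vehicle cells.

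Fosl2, which encodes the FOS-related protein FRA2, rose less. In CT-179 cells its levels were 3.49, 2.22 and 3.53 FPKM at 144 h, against 1.17, 1.37 and 1.50 FPKM at 24 h. In vehicle cells they were 3.47, 3.35 and 3.26 FPKM at 144 h, against 1.17, 1.77 and 1.55 FPKM at 24 h. The times did not overlap in either arm, and the lowest library at 144 h was replicate 2 of CT-179. The log2 fold change was 0.78 (adjusted p = 4.2e-04) in CT-179 cells and 0.81 (adjusted p = 3.2e-04) in vehicle cells, both by limma. Fosb, a paralogue of Fos that is also induced by activity in neurons, ranged from 0.285 to 0.388 FPKM in CT-179 cells at 144 h, against 0.170 to 0.228 FPKM at 24 h. In vehicle cells Fosb ranged from 0.218 to 0.283 FPKM at 144 h, against 0.141 to 0.202 FPKM at 24 h. Its libraries did not overlap between times in either arm, at 28 to 81 implied reads per library.

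Jun, the founding member of the JUN family, was the highest of the 10 in every group and moved little. It stood at 32.8, 33.2 and 34.4 FPKM in CT-179 cells at 144 h, against 32.5, 32.4 and 32.4 FPKM at 24 h. In vehicle cells it stood at 34.9 FPKM in each library at 144 h, against 33.2, 32.6 and 31.6 FPKM at 24 h. Its libraries at 144 h all lay above those at 24 h in both arms, yet the log2 fold change was 0.04 (adjusted p = 0.43, limma) in CT-179 cells and 0.10 (adjusted p = 0.080, limma) in vehicle cells. With replicate 2 of CT-179 at 144 h left out, the vehicle change was called at the same size (adjusted p = 0.0028, limma). Jun overlaps the antisense gene Junos over 689 bases. Junos itself was at 0.0982 to 0.291 FPKM in the cells, and the strand of counting is not given in the sources used here.

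Junb, whose protein can oppose JUN at some promoters, rose with time in both arms. Its levels were 9.14, 13.2 and 10.4 FPKM in CT-179 cells at 144 h, against 3.78, 3.70 and 3.73 FPKM at 24 h. In vehicle cells they were 6.27, 6.68 and 5.55 FPKM at 144 h, against 3.33, 3.72 and 3.01 FPKM at 24 h. No library at 24 h reached any at 144 h. The log2 fold change was 1.32 (SE 0.117, adjusted p = 2.6e-06, limma) in CT-179 cells and 0.72 (SE 0.117, adjusted p = 2.8e-04, limma) in vehicle cells. Jund, the JUN gene usually described as constitutive, was the lowest of the 10. It was at 0.143, 0.367 and 0.180 FPKM in CT-179 cells at 144 h, against 0.0787, 0.0193 and 0.0485 FPKM at 24 h. Jund in vehicle cells was at 0.148, 0.132 and 0.146 FPKM at 144 h, against 0.0180 FPKM in 1 library and 0 in the other 2 at 24 h. These values rest on at most 25 implied reads per cell library, and 919 bases of the 1668-base Jund gene (chromosome 8, 70698949 to 70700616 on mm10) overlap the antisense gene Gm11175, so the level of Jund is uncertain.

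Egr1, an immediate early zinc finger transcription factor outside AP-1, rose by 1.50 on the log2 scale in CT-179 cells (SE 0.0847, adjusted p = 6.9e-08, limma). It stood there at 9.07, 7.75 and 10 FPKM at 144 h, against 2.37, 2.62 and 2.53 FPKM at 24 h. In vehicle cells it stood at 7.71, 7.91 and 7.49 FPKM at 144 h, against 3.14, 3.03 and 2.72 FPKM at 24 h. The times were far apart in both arms, with a log2 fold change of 1.14 in vehicle cells (SE 0.0847, adjusted p = 6.1e-07, limma).

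Ier2, a short nuclear protein gene induced by growth factors, was called in CT-179 cells and not in vehicle cells. Its levels in CT-179 cells were 8.99, 19.7 and 10.4 FPKM at 144 h, against 7.33, 7.81 and 7.96 FPKM at 24 h. In vehicle cells they were 7.52, 9.06 and 8.54 FPKM at 144 h, against 8.52, 7.79 and 6.49 FPKM at 24 h. Replicate 2 of CT-179 at 144 h was about as high as the other 2 libraries of its group together. The log2 fold change in CT-179 cells was 0.61 (adjusted p = 0.032, limma) with that library and 0.29 (adjusted p = 0.015, limma) without it, and in vehicle cells it was 0.13 (adjusted p = 0.63, limma). The difference between the arms did not pass (0.48, adjusted p = 0.69, limma). The call in CT-179 cells was lost without any 1 of the CT-179 libraries of 24 h (adjusted p between 0.062 and 0.083, limma). Klf6, a Krüppel-like factor induced by injury and serum, was at 9.57 to 11.4 FPKM in CT-179 cells at 144 h, against 8.81 to 9.62 FPKM at 24 h. Klf6 in vehicle cells was at 10.2 to 10.7 FPKM at 144 h, against 9.05 to 9.25 FPKM at 24 h. Its log2 fold change was 0.17 in each arm, with adjusted p = 0.043 in CT-179 cells and 0.040 in vehicle cells (limma). When a single library was left out, the call held in 1 of 12 cases in CT-179 cells and in 3 of 12 in vehicle cells. With the replicate number as a block the call in CT-179 cells was lost (adjusted p = 0.061, limma).

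Atf3, a stress-induced relative of the FOS and JUN proteins that often acts as a repressor, was at 0.972, 0.944 and 0.835 FPKM in CT-179 cells at 144 h, against 0.514, 0.568 and 0.739 FPKM at 24 h. In vehicle cells it was at 0.611, 0.553 and 0.695 FPKM at 144 h, against 0.553, 0.418 and 0.438 FPKM at 24 h. The highest vehicle library at 24 h and the lowest at 144 h were both at 0.553 FPKM when rounded. With no filter on low values, the log2 fold change of Atf3 over time was 0.26 (adjusted p = 0.015, limma) in CT-179 cells and 0.14 (adjusted p = 0.16, limma) in vehicle cells. Over all 10 members, 9 had every library at 144 h above every library at 24 h in each arm. Of the 7 tested members, 6 did so in each arm, beside 33.4% of all genes tested in CT-179 cells and 44.6% in vehicle cells. The exceptions were Klf6 in CT-179 cells, through replicate 2 at 144 h, and Ier2 in vehicle cells.

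**Figure D1:**
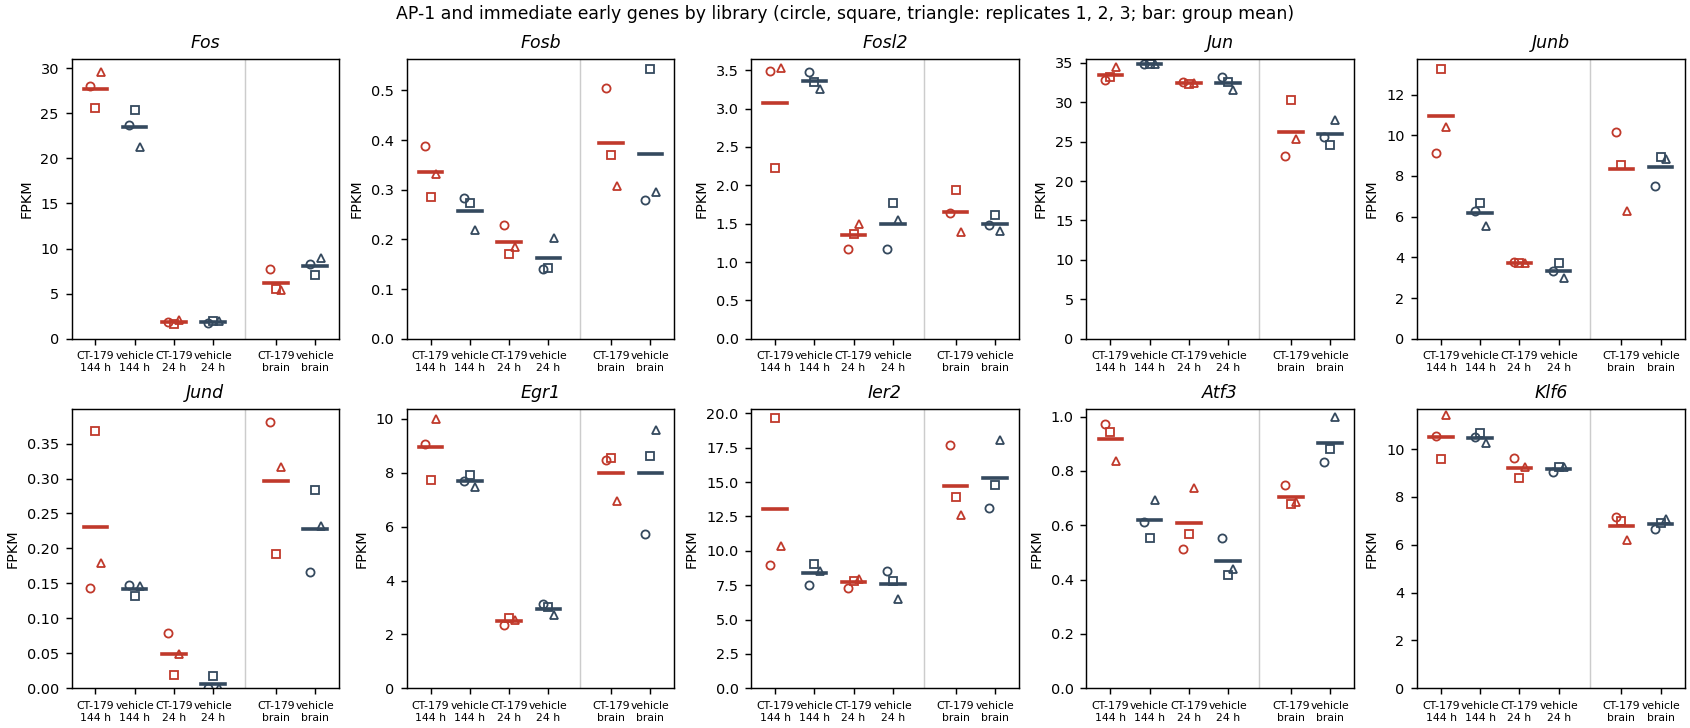
FPKM of each of the 10 genes in every library, with 1 panel per gene and a linear axis from 0. Points are single libraries and bars are group means of 3. Fos sits between 21.3 and 29.6 FPKM in all 6 cell libraries at 144 h and between 1.65 and 2.06 FPKM in all 6 at 24 h, and the square of CT-179 at 144 h is high for Ier2 and Junb and low for Fosl2.

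Cell type markers moved with time as well. Of 8 astrocyte markers tested, 7 rose in CT-179 cells and 8 in vehicle cells. Their summed level was 1062 to 1197 FPKM in CT-179 cells at 144 h, against 493 to 504 FPKM at 24 h, and 1076 to 1095 FPKM in vehicle cells at 144 h, against 460 to 492 FPKM at 24 h. Of the 6 neuron markers tested, 5 rose in each arm, and 1 fell in CT-179 cells. Their list summed to 60.9 to 96.9 FPKM in CT-179 cells at 144 h, against 38.6 to 41.1 FPKM at 24 h. In vehicle cells it summed to 104 to 108 FPKM at 144 h, against 41.2 to 42.6 FPKM at 24 h. Snap25, a defining neuron gene, was under 0.1 FPKM in all 4 groups. Of 6 oligodendrocyte lineage markers tested, 3 rose and 3 fell in each arm, and their list summed lower at 144 h. The sum was 723 to 848 FPKM in CT-179 cells at 144 h, against 1089 to 1182 FPKM at 24 h. In vehicle cells it was 681 to 707 FPKM at 144 h, against 1015 to 1132 FPKM at 24 h. Of 4 granule lineage markers tested, 1 rose and 1 fell in each arm. Microglial, endothelial, red blood cell and choroid plexus markers summed to at most 8.70 FPKM per list in any cell library. The part of these changes in the levels of Fos, Egr1 and Junb was not tested.

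With these changes the make-up of the FOS and JUN transcripts differed between times. FPKM is per length, so levels can be summed across genes. The JUN sum includes Jund, whose level is uncertain, so the ratio of FOS to JUN members is uncertain to that extent. The 3 FOS members together stood at 0.701 ± 0.0870 of the 3 JUN members in CT-179 cells and 0.657 ± 0.0431 in vehicle cells at 144 h (SD, n = 3 each). At 24 h the ratio was 0.0935 ± 0.00876 in CT-179 cells and 0.0994 ± 0.0144 in vehicle cells. Fos supplied 89.1% of the FOS sum in CT-179 cells and 86.6% in vehicle cells at 144 h, and 54.4% in CT-179 cells and 53.6% in vehicle cells at 24 h. Within the JUN sum, Junb stood at 0.327 ± 0.0631 of Jun in CT-179 cells and 0.177 ± 0.0163 in vehicle cells at 144 h. The CT-179 libraries were at 0.279, 0.398 and 0.303 for replicates 1, 2 and 3, so replicate 2, which stood apart, raised that mean and SD. At 24 h the ratio of Junb to Jun was 0.115 ± 0.000986 in CT-179 cells and 0.103 ± 0.00988 in vehicle cells.

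**Figure D2:**
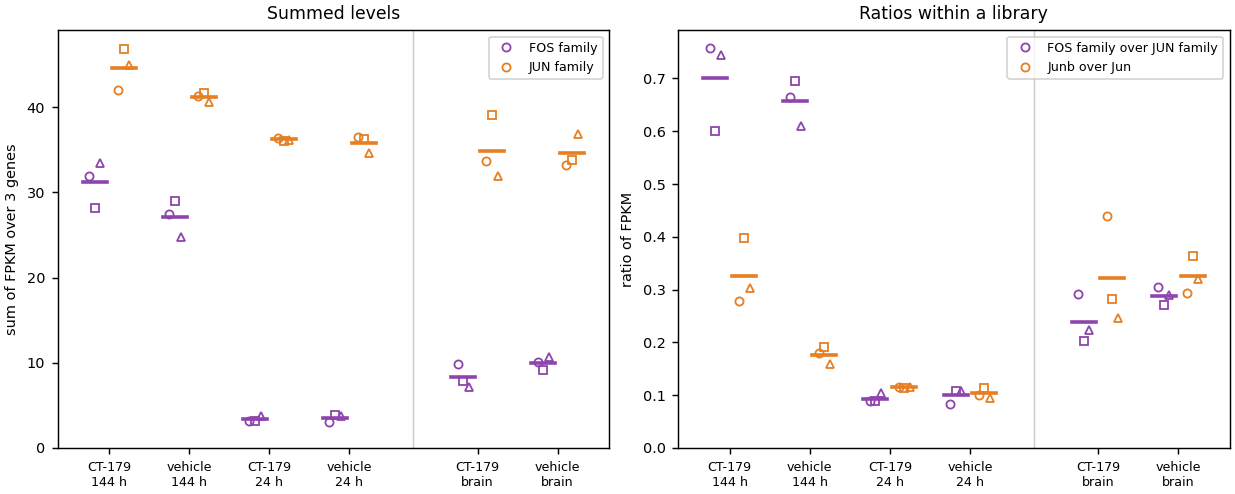
Left, summed FPKM of Fos, Fosb and Fosl2 (FOS family) and of Jun, Junb and Jund (JUN family) in every library; right, the ratio of the sums and the ratio of Junb to Jun. Points are libraries and bars are means of 3. The FOS sum at 24 h is near 3 to 4 FPKM in both arms, while the JUN sum stays above 30 FPKM in every library. Jund, whose level is uncertain, is part of the JUN sum.

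The order of the levels differed between times. Jun was first in all 6 groups and Jund last. Fos was the second highest member in both arms at 144 h, and no library of Jun or of the next gene overlapped it there. At 24 h Fos ranked after Jun, Klf6, Ier2, Junb and Egr1 in both arms. In vehicle cells at 24 h the neighbours Junb and Egr1, and Fos and Fosl2, overlapped. In CT-179 cells at 144 h Ier2, Junb, Klf6 and Egr1 followed one another with overlapping ranges. In vehicle cells at 144 h Ier2 and Egr1 overlapped, and in CT-179 cells at 24 h no neighbours did. In brain Ier2 was second to Jun, and Junb, Egr1, Klf6 and Fos followed with overlapping neighbours in both groups.

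CT-179 was compared with vehicle at each time. At 144 h, Junb was the 1 member of 7 called higher, and none was called lower. Over all genes tested, 0.512% were called higher and 3.37% lower. Junb averaged 10.9 ± 2.09 FPKM in CT-179 cells and 6.17 ± 0.568 FPKM in vehicle cells at 144 h (SD, n = 3 each), and the lowest CT-179 library lay above the highest vehicle library. Its log2 fold change was 0.72 (SE 0.117, adjusted p = 0.0087, limma). The change was larger than that of 99.8% of the protein-coding genes tested, and of 98.5% of those in the shortest of 10 length bins, to which Junb belongs. In that bin the median log2 fold change was 0.37, and the log2 fold change at 144 h was lower in longer genes (Spearman's rho -0.69 across 11361 genes, which are not independent). Neuron markers, of which 2 of 6 were lower with CT-179 at 144 h, summed to 96.9, 60.9 and 93.9 FPKM in CT-179 replicates 1, 2 and 3. In vehicle cells they summed to 104 to 108 FPKM. Granule lineage markers, of which 1 of 4 was lower, summed to 33.0 to 40.0 FPKM in CT-179 cells, against 48.8 to 49.3 FPKM in vehicle cells. Also lower were 1 of 6 oligodendrocyte lineage markers and 1 of 1 microglial marker, and of 8 astrocyte markers 1 was higher and 1 lower. The part of these markers in the result was not tested.

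The other tested members differed less at 144 h. Fos averaged 27.7 ± 2.01 FPKM in CT-179 cells and 23.5 ± 2.05 FPKM in vehicle cells (SD, n = 3 each), with a log2 fold change of 0.23 (adjusted p = 0.14, limma). The 3 CT-179 libraries of Fos lay above the 3 vehicle libraries, the closest pair being 25.6 and 25.4 FPKM. Neither Egr1, at 0.19 on the log2 scale, nor Ier2, at 0.51, passed (adjusted p = 0.17 for each, limma). Fosl2, Jun and Klf6 had log2 fold changes of -0.11, -0.06 and 0.00, with adjusted p = 0.51, 0.35 and 0.96 (limma). Of all 10 members, Fos, Fosb, Junb and Atf3 had every CT-179 library above every vehicle library, and Jun had every CT-179 library below. Of the 7 tested members, 2 lay above without overlap and 1 below, beside 19.1% above and 27% below over all genes tested.

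Atf3, under the filter, stood at 0.972, 0.944 and 0.835 FPKM in CT-179 cells, against 0.611, 0.553 and 0.695 FPKM in vehicle cells at 144 h. This was a ratio of means of 1.48, on 66 to 83 implied reads per library in CT-179 cells and 38 to 49 in vehicle cells. With no filter on low values, its log2 fold change of 0.24 had adjusted p = 0.12 (limma).

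Replicate 2 of CT-179 at 144 h differed from replicates 1 and 3 in a way that followed gene length. Relative to the mean of those 2, its FPKM was 2.03 times as high for Ier2 (exonic length 1522 bases), 2.27 times for Jund (1668 bases) and 1.35 times for Junb (1809 bases). It was 0.634 times as high for Fosl2 (9680 bases), 0.793 for Fosb (6243 bases), 0.813 for Egr1 (4484 bases) and 0.870 for Klf6 (4391 bases). Fos (2352 bases) was the short exception at 0.889 times, and Jun (0.989 times) and Atf3 (1.04 times) were close to the other libraries. Across all protein-coding genes tested, the median log2 ratio was 0.80 in the shortest of 10 length bins and -0.79 in the longest.

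**Figure D3:**
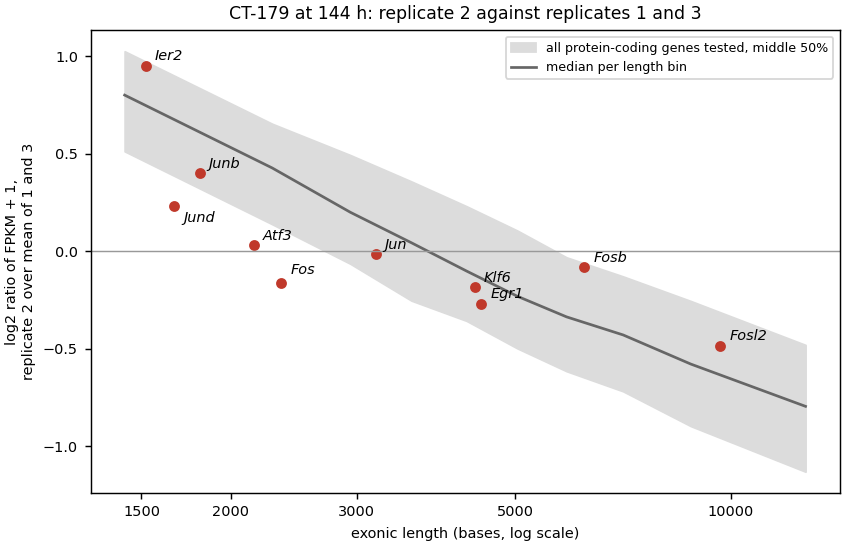
Log2 ratio of FPKM + 1 of replicate 2 to the mean of replicates 1 and 3 of CT-179 at 144 h, by exonic length on a log scale. Points are the 10 genes, the line is the median of each of 10 length bins of all protein-coding genes tested, and the band holds their middle 50%. Fosl2 lies low and Ier2 high along the same slope. Fos and Atf3, and Junb by the lower quartile of its own bin (0.51), lie lower than most genes of their length. Jund also plots low, but 1 is added there to values of 0.143 to 0.367 FPKM, and its ratio of FPKM was 2.27.

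Junb kept its call without that library, with a log2 fold change of 0.59 (adjusted p = 4.6e-04, limma), and after correction for gene length, with 0.51 (adjusted p = 0.0056, limma). The call was lost when only the 6 libraries of 144 h were fitted (adjusted p = 0.23) and when vehicle replicate 3 of 144 h was left out (log2 fold change 0.66, adjusted p = 0.057, limma). When replicate 2 of CT-179 was left out, Fos and Egr1 were also called higher at 144 h. The log2 fold change was then 0.29 for Fos (adjusted p = 0.017) and 0.28 for Egr1 (adjusted p = 0.0050, limma), so that 3 of 7 members were called higher beside 11.8% of all genes tested. With length correction and all libraries, Fos was at 0.08 (adjusted p = 0.67) and Egr1 at 0.24 (adjusted p = 0.055, limma). With both changes Fos was at 0.25 (adjusted p = 0.046) and Egr1 at 0.29 (adjusted p = 0.0032, limma). Ier2 stayed short of the threshold either way, with 0.19 without that library (adjusted p = 0.17) and 0.26 with length correction (adjusted p = 0.17, limma). With no filter on low values and without that library, Fos had adjusted p = 0.058 (limma).

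**Figure D4:**
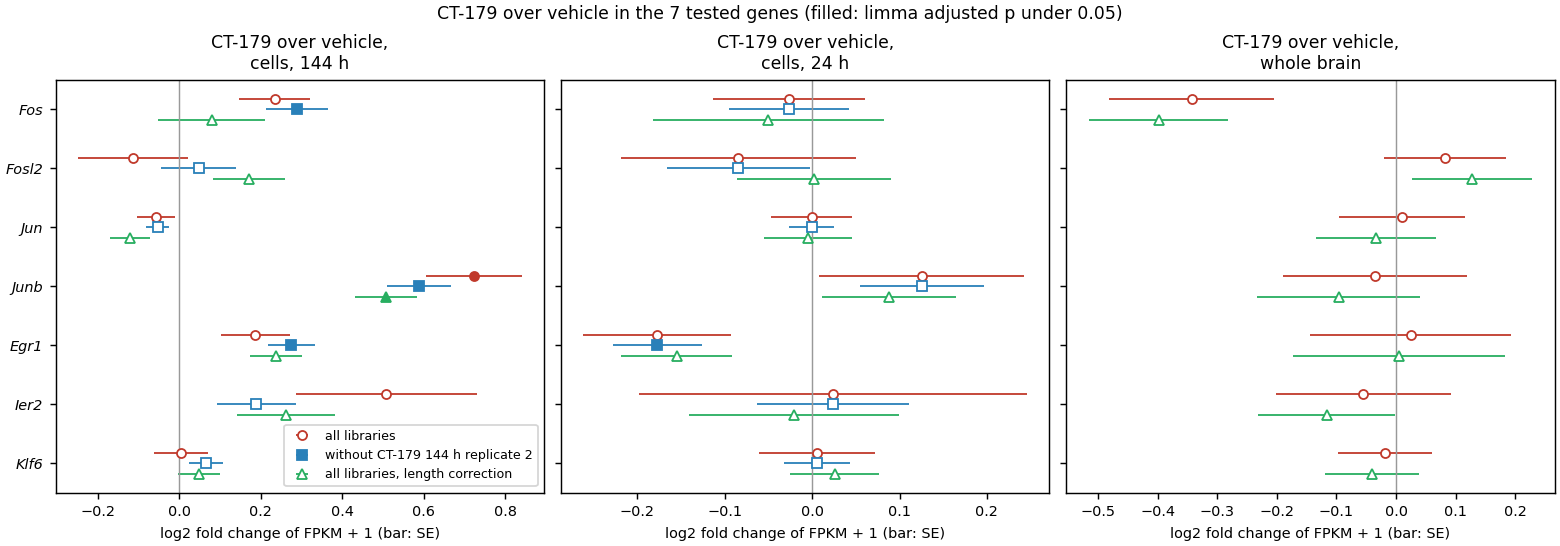
Log2 fold change of FPKM + 1, CT-179 over vehicle, for the 7 tested genes in cells at 144 h, in cells at 24 h and in whole brain, with bars of 1 SE and separate horizontal scales. Circles use all libraries, squares leave out replicate 2 of CT-179 at 144 h, triangles correct for gene length, and filled symbols passed the limma threshold. Junb at 144 h is the only gene filled in all 3 settings of its panel.

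At 24 h none of the 7 tested members was called, nor had any an unadjusted p under 0.05 (limma), beside 0.264% of all genes called. Fos stood at 1.85 ± 0.206 FPKM in CT-179 cells and 1.90 ± 0.152 FPKM in vehicle cells, and Jun at 32.4 FPKM in CT-179 cells and 32.5 FPKM in vehicle cells (n = 3 each). The largest difference among the members was in Egr1, at 2.37, 2.62 and 2.53 FPKM in CT-179 cells, against 3.14, 3.03 and 2.72 FPKM in vehicle cells. All 3 CT-179 libraries of Egr1 lay below all 3 vehicle libraries, with a log2 fold change of -0.18 (adjusted p = 1, limma). Of the 10 members, Egr1 was the 1 wholly below, beside 22.9% of all genes tested. Jund, which is under the filter, was the 1 wholly above. It had 7, 1 and 3 implied reads in CT-179 cells, against 0, 1 and 0 in vehicle cells. Its closest libraries, at 0.0193 and 0.0180 FPKM, held 1 read each. No tested member lay wholly above, beside 14.5% of all genes tested. Replicate 2 of CT-179 at 144 h, a library of the other time, enters only through the shared spread. Without that library the change in Egr1 was called (adjusted p = 0.030, limma). Then 14.1% of all genes tested were called lower.

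The difference between the CT-179 effects at 144 h and 24 h was tested directly. No member passed, nor did any of the 12510 genes (0%), of which 574 had an unadjusted p under 0.05, Junb and Egr1 among them (limma). The effect on Junb was higher by 0.60 on the log2 scale at 144 h than at 24 h (adjusted p = 0.69), and that on Egr1 by 0.36 (adjusted p = 0.69, limma). Once replicate 2 of CT-179 at 144 h was left out, Egr1 (0.45, adjusted p = 0.016) and Junb (0.46, adjusted p = 0.045) passed, beside 1.2% of all genes called higher (limma). Egr1 then had an effect below 0 at 24 h and above 0 at 144 h.

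Other genes of the same circuitry were counted over lists. Of the 11 MAPK feedback genes, which encode phosphatases, Sprouty and SPRED inhibitors and ETV factors that track ERK activity, 9 fell in CT-179 cells and 10 fell in vehicle cells, and none rose in either. Their median log2 fold change was -2.68 in CT-179 cells and -2.62 in vehicle cells. Dusp6, the ERK phosphatase gene, averaged 1.72 FPKM in CT-179 cells at 144 h, against 91.4 FPKM at 24 h, and 1.19 FPKM in vehicle cells at 144 h, against 95.5 FPKM at 24 h. In vehicle cells the Sprouty gene Spry4 averaged 0.468 FPKM at 144 h, against 55.7 FPKM at 24 h. Spry1 averaged 2.51 FPKM at 144 h, against 47.2 FPKM at 24 h. Fos and Egr1 thus stood higher at the time at which the feedback genes stood lower. Over all genes tested, 32.1% were called lower in CT-179 cells and 32.4% in vehicle cells.

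Of the 20 upstream kinase and transcription factor genes, 3 rose and 11 fell in CT-179 cells, and 4 rose and 8 fell in vehicle cells. In vehicle cells Mapk10, a neuronal JNK gene, rose by 1.87 on the log2 scale, whereas the CREB relative Atf1 fell by 1.05 and the RSK kinase gene Rps6ka1 fell by 1.14. Of 10 other immediate early transcription factor genes tested, 3 rose and 5 fell in vehicle cells. Among them Myc fell by 1.76 and Klf10 fell by 1.25, whereas Nfil3 rose by 1.09. These immediate early genes did not move in 1 direction with time. Of 15 effector genes, 7 rose and 5 fell, with Btg2, an antiproliferative gene, at 1.78, the mRNA decay gene Zfp36l1 at 1.73 and the kinase gene Plk2 at -2.81.

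Among 9 other AP-1 and related basic leucine zipper genes tested, 3 rose and 2 fell in vehicle cells. Maf rose by 1.66 and Jdp2, which encodes a JUN partner that represses AP-1, rose by 0.94, whereas the small MAF gene Maff fell by 1.30. Of 7 tested genes known as AP-1 targets, 2 rose and 5 fell in each arm. Ccnd1, the cyclin D1 gene, averaged 21.2 FPKM in vehicle cells at 144 h, against 160 FPKM at 24 h, while Spp1 fell by 2.05 and Cd44 fell by 1.13.

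**Figure D5:**
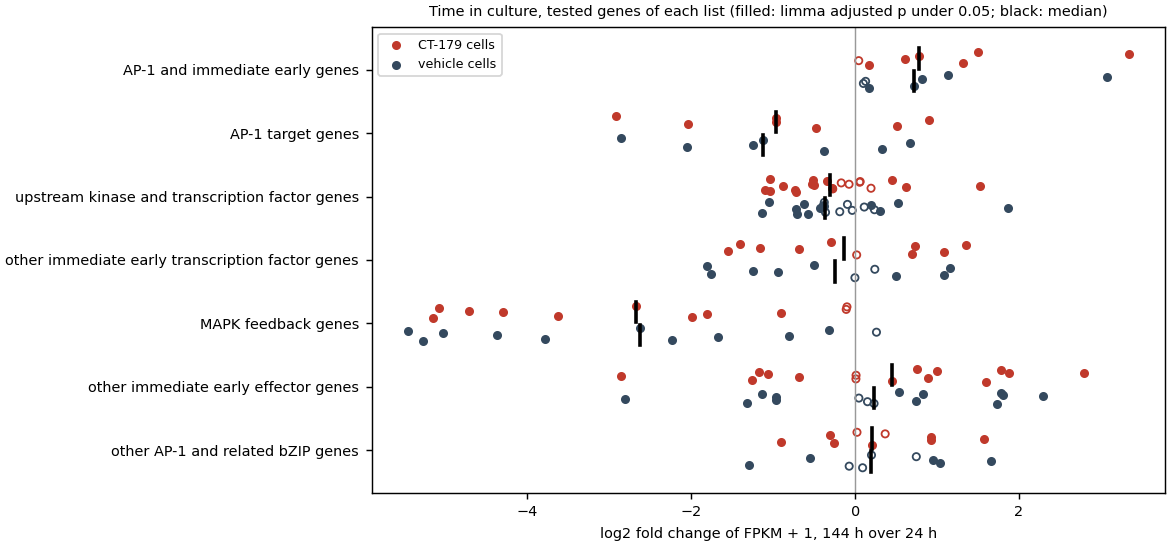
Log2 fold change of FPKM + 1, 144 h over 24 h, for every tested gene of each list, in CT-179 cells (red, upper of each pair) and vehicle cells (dark, lower). Filled points passed the limma threshold and black bars are medians. The AP-1 and immediate early genes lie at or above 0, with Fos beyond 3, and the MAPK feedback genes lie mostly below 0 and down to -5.46.

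Few genes of these lists were called with CT-179. At 144 h Dusp6 rose by 0.31 (adjusted p = 0.0074), Maff by 0.43 (adjusted p = 0.028) and Btg1 by 0.30 (adjusted p = 0.043), and Mafg fell by 0.38 (adjusted p = 0.0056, limma). These were 1 of 11 feedback genes, 2 of 9 leucine zipper genes and 1 of 15 effector genes. No upstream, target or other immediate early transcription factor gene passed. Without replicate 2 of CT-179 at 144 h, 7 of the 11 feedback genes were called higher and 1 lower at 144 h, beside 11.8% of all genes called higher and 16.9% called lower. Then 2 upstream genes were called higher and 5 lower, 2 effector genes higher and 2 lower, 1 leucine zipper gene higher and 2 lower, and 1 gene higher in each of the target and transcription factor lists. Maff, which had fallen with time, stood at 1.68 FPKM in CT-179 cells, against 1.00 FPKM in vehicle cells. With all libraries, the only list gene called at 24 h was Elk4, an SRF partner, at 7.20 FPKM in CT-179 cells, against 9.11 FPKM in vehicle cells (log2 fold change -0.30, adjusted p = 0.044, limma). With that replicate of CT-179 at 144 h left out, 4 upstream, 2 leucine zipper, 2 effector and 1 feedback gene were called lower at 24 h, and 1 effector and 1 target gene higher. Over all genes tested, 8.08% were then called higher and 14.1% lower.

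In whole brain at postnatal day 15 none of the 7 tested members was called, nor any of 13422 genes (0%), of which 490 had an unadjusted p under 0.05 (limma). Among the members, Fos was the 1 with such a p. Fos stood at 7.71, 5.57 and 5.41 FPKM in CT-179 brains, against 8.34, 7.02 and 8.99 FPKM in vehicle brains. The groups overlapped through CT-179 replicate 1, and the log2 fold change was -0.34 (SE 0.138, unadjusted p = 0.038, adjusted p = 0.97, limma), lower than that of all but 0.784% of protein-coding genes tested. Without vehicle replicate 2 it was -0.43 (adjusted p = 1, limma), and 0 members and 1 gene passed. In the authors' deposited table, which runs vehicle over CT-179, the log2 fold change of Fos was 0.48, with p = 0.0176 and a false discovery rate of 1. That table matched a comparison that leaves out vehicle replicate 2 (r = 0.99965 across genes), and 0 of the 10 members had a false discovery rate under 0.05 in the authors' deposited table, beside 17 genes in all (0.0873%).

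Atf3 was the 1 member of 10 whose brain groups did not overlap, at 0.749, 0.677 and 0.687 FPKM in CT-179 brains, against 0.831, 0.880 and 1.00 FPKM in vehicle brains. Atf3 is under the filter, and none of the 7 tested members lay lower without overlap, beside 4.6% of all genes tested. With no filter the log2 fold change of Atf3 was -0.16 (adjusted p = 0.93, limma), on 24 to 89 implied reads per library. Junb stood at 10.2, 8.56 and 6.26 FPKM in CT-179 brains, against 7.50, 8.95 and 8.86 FPKM in vehicle brains, with the groups overlapping. Jun stood at 23.2, 30.3 and 25.3 FPKM in CT-179 brains, against 25.5, 24.6 and 27.7 FPKM in vehicle brains. Egr1 stood at 8.48, 8.56 and 6.96 FPKM in CT-179 brains, against 5.72, 8.61 and 9.61 FPKM in vehicle brains. For all 3 genes the spread within a group exceeded the difference of the means. Ier2 ranged from 12.6 to 17.7 FPKM in CT-179 brains, against 13.1 to 18.1 FPKM in vehicle brains, and Klf6 from 6.22 to 7.17 FPKM in CT-179 brains, against 6.66 to 7.09 FPKM in vehicle brains. Fosl2 ranged from 1.39 to 1.93 FPKM in CT-179 brains, against 1.40 to 1.62 FPKM in vehicle brains, with the groups overlapping. Fosb averaged 0.394 FPKM in CT-179 brains and 0.372 FPKM in vehicle brains, and Jund 0.296 FPKM in CT-179 brains and 0.227 FPKM in vehicle brains, again with overlap.

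The FOS to JUN ratio in brain was 0.239 ± 0.0473 in CT-179 brains and 0.289 ± 0.0166 in vehicle brains (SD, n = 3 each). It lay between the values of the cells at 24 h and at 144 h, as a level set across 2 tables that were normalised separately. The uncertain level of Jund enters this ratio too. Summed choroid plexus markers were 1107 to 2395 FPKM in CT-179 brains, against 1051 to 1385 FPKM in vehicle brains. Red blood cell markers were 53.6 to 243 FPKM in CT-179 brains, against 47.0 to 154 FPKM in vehicle brains. CT-179 replicate 1 was the highest library for both lists and the highest CT-179 library for Fos, Junb and Ier2. The part of these markers in the member levels was not tested.

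The genes most like 6 of the members over the 12 cell libraries were found by Pearson's r of log2(FPKM + 1). For Fos they were Serpina3n (r = 0.999), Mmp14 and Ccdc190, and for Egr1 Scarf2 (0.997), B4galnt4 and Hrc. For Junb they were Vim (0.990), Dcn and S100a4, for Fosl2 Tiparp (0.990), for Ier2 Zfp787 (0.979) and for Klf6 Pros1 (0.964). Among the members themselves Fos and Egr1 were closest (0.989), whereas Ier2 and Klf6 were least alike (0.183). The 12 points fall into 2 times, so these values, apart from those of Ier2, mostly describe a shared difference between times. Ier2 was set apart mainly by replicate 2 of CT-179 at 144 h, at 19.7 FPKM, against at most 10.4 FPKM in any other cell library. Over the 6 brain libraries the closest pair of members was Junb and Klf6 (0.968), and Fos and Egr1 were at 0.0778.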

How the data were processed

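Per the labels' protocols, RNA was isolated with RNeasy kits, made into libraries with a SMARTer mRNA kit and sequenced as paired reads of 100 bases. The submitters' processing notes name STAR 2.6.0c, Trim Galore 0.5.0, the mm10 build, R 3.6 with edgeR 3.28.1, and HTSeq 0.6.1p2. Their settings, the annotation and the strand of counting are not given in the sources used here. Values per gene and library were deposited by the authors as FPKM, in 1 table for cells and 1 for brain. For brain they also deposited a comparison with log2 fold changes, log2 CPM, a likelihood ratio score, p-values and false discovery rates.

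Low FPKM values were whole multiples of 1 read in 90.0% to 92.0% of cases in cells and 93.5% to 98.5% in brain (up to 20 reads, tolerance 0.1), which gave the implied reads. These exceeded the FPKM scale by 1.23 to 1.39 times for a reason not known, so no count model was used.

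Log2(FPKM + 1) was tested with limma 3.58.1 in R 4.3.3 (empirical Bayes with a mean trend), with all 12 cell libraries in 1 fit and the 6 brain libraries in another. Genes needed at least 1 FPKM in 3 libraries, which left 12510 genes in cells and 13422 in brain. P-values were adjusted over all of these (Benjamini-Hochberg, threshold 0.05). On simulated data, 85 of 100 genes changed by 1 on the log2 scale and 99 of 100 changed by 2 were recovered for CT-179 over vehicle at 24 h. There 9 unchanged genes were called. The simulated noise was independent between genes and libraries. It lacked the length trend of replicate 2 of CT-179 at 144 h, so these rates may not hold for the real libraries. The genes described were taken by symbol, and of each other list up to 3 genes with the smallest p among those past the threshold in a comparison were named. Members and lists were chosen with earlier results of these data known. Alternatives were another pseudocount, no filter, other scalings, length correction, a replicate block, separate fits and leaving out each library; 3 that combine settings were added after seeing the data. Replicate numbers are shared between groups but not explained in the labels. Between CT-179 at 144 h and at 24 h, deviations from the group means correlated at 0.11, 0.24 and 0.14 for replicates 1, 2 and 3. Replicate 1 at 144 h correlated more with replicate 3 at 24 h (0.15), so these values do not settle whether libraries were paired. The main fit used no pairing, and only the replicate block alternative used the numbers. Promoter sequences are from RefSeq (GRCm38.p6). The genes most like Jun are not reported here.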

Additional observations from a re-analysis of the deposited data

Results flagged for a closer look

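The CT-179 and vehicle levels of Atf3 stood in opposite order in the cells at 144 h and in whole brain, and neither difference passed a test. The ratio of means, CT-179 over vehicle, was 1.48 in cells at 144 h, where every CT-179 library lay above every vehicle library, as for 19.1% of all genes tested (adjusted p = 0.12 with no filter, limma). In whole brain it was 0.779, and every CT-179 library lay below every vehicle library, as for 4.6% of all genes tested (adjusted p = 0.93 with no filter, limma). The difference between the 2 was not tested, since the tables were normalised separately, and Atf3 was under the filter on low values in both. The direction in brain depends on the treatment label.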

How the results depend on the processing

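The rise with time of Fos, Fosl2, Junb and Egr1 passed the threshold in both arms under every alternative run, and no result changed its sign while called. Over single genes, 781 values under alternatives gave the same call, 20 passed only under the alternative and 32 only without it; Klf6 and Ier2 over time and Junb at 144 h account for all lost calls. For CT-179 at 144 h, Junb kept its call in 20 of 22 alternatives. Under TPM scaling the all-gene median at 144 h was -0.23 in place of -0.05, and Junb stood at 0.60 (adjusted p = 0.012, limma).

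For CT-179 at 24 h, 33 genes passed, against 19 with median-of-ratios scaling, 13 with TPM scaling, 2 with the replicate block and 1996 in a separate fit. At 144 h, 64 genes passed as higher and 422 as lower, against a total of 301 with the replicate block and 0 in a separate fit, where 0 members passed too. For the difference between times 0 genes passed, against 28 with no filter, 1 with TPM scaling and 10 with length correction. Without replicate 2 of CT-179 at 144 h, the combined settings added after seeing the data gave 2002 (length correction), 3192 (median-of-ratios) and 2015 (no filter) genes at 24 h, with 1 member under length correction. They gave 2937, 3846 and 3167 genes at 144 h, with 3, 3 and 2 members. For the difference between times they gave 387, 320 and 181 genes, with 2, 2 and 1 members. With no filter and without that library, 13000 genes passed over time in CT-179 cells and 14015 in vehicle cells, with 8 members in vehicle cells.

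Leaving out 1 library gave 1 to 2762 genes and 0 to 1 members at 24 h, 122 to 3580 genes and 0 to 3 members at 144 h, and 0 to 331 genes and 0 to 2 members for the difference between times. Over time it gave 7373 to 10670 genes in CT-179 cells and 7456 to 10922 in vehicle cells, with 4 to 6 members in each, and in brain 0 to 1 genes and 0 members. The highest counts in cells came without replicate 2 of CT-179 at 144 h. The cause of these changes was not tested.

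Deviations of same-numbered libraries correlated at -0.13 to 0.24 over all pairs of cell groups and -0.39 to 0.11 in brain. Those of differently numbered libraries correlated at -0.24 to 0.15 in cells and -0.56 to 0.46 in brain. The main fit did not use the numbers as pairs. With the replicate block, Klf6 over time lost its call (adjusted p = 0.061 in CT-179 cells and 0.058 in vehicle cells), and Junb at 144 h kept its call (adjusted p = 0.012, limma). The block changed no other call of a member. FPKM below about 1 rests on few reads, which limits Fosb, Jund and Atf3.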
